A study of Mus musculus with 8 samples.

Results

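Expression of 10 genes tied to the glucocorticoid response was examined in the striatum of wild type (WT) and 16p11.2+/- mice. They were the glucocorticoid receptor Nr3c1, the receptor-induced genes Fkbp5, Sgk1, Tsc22d3, Zbtb16, Sult1a1, Plin4 and Cdkn1a, and the metallothioneins Mt1 and Mt2. The genes were picked by symbol from the 55032 genes counted in each mouse, and all 10 were among the 18294 genes with enough counts to be tested.

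All animals were females of strain C57BL/6 at postnatal day 60, 4 of them WT and 4 of them 16p11.2+/-. The 16p11.2+/- line carries a heterozygous deletion on chromosome 7 in all cells, and the tissue of both groups was taken under terminal anesthesia, with no other treatment named. Each mouse gave 1 library of total RNA from its striatum, with between 15125051 and 16387993 counts on genes per WT mouse and between 15240680 and 16523429 per 16p11.2+/- mouse. Mice are named here as in their labels, WT for wild type and DF for 16p11.2+/-.

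Glucocorticoid hormones enter cells and bind NR3C1, which is held in the cytoplasm by chaperones until the hormone arrives. The bound receptor moves to the nucleus and binds response elements near its target genes. Targets induced in the brain include chaperone proteins that dampen the receptor, kinases, transcription factors and metabolic genes, and many of them are used as markers of stress or of the daily rise of the hormone. Hormone levels and the hour of tissue collection were not analysed here.

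The libraries differed in their marker genes of cell types, so these are given before the results, and what set the marker levels was not tested. Markers of medium spiny neurons, the principal neurons of the striatum, had a score (the mean of their log2 CPM, which are counts scaled by the size of the library) of between 8.23 and 8.97 in the 4 WT mice. The score was 8.91 in DF-1018 and 8.77 in DF-1059, but 6.91 in DF-1037 and 6.49 in DF-1062. All 10 of these markers were detected in every library, Penk being the most abundant with an FPKM of between 266 and 453 in WT mice, 456 in DF-1018, 395 in DF-1059, 111 in DF-1037 and 115 in DF-1062. Thalamic neuron markers (7 genes, Prkcd the most abundant) scored 7.10 in WT-1063 and between 4.33 and 4.63 in the other WT mice. In 16p11.2+/- mice the thalamic score was 7.16 in DF-1037, 6.45 in DF-1062, 6.33 in DF-1018 and 4.56 in DF-1059. Choroid plexus markers, led by Ttr, scored 7.36 in WT-1063 and 4.64 in WT-1015. Their score was between 0.61 and 3.17 in the other 6 mice. Cortical glutamatergic neuron markers, led by Slc17a7, scored between 2.43 and 5.70 in WT and between 2.23 and 5.77 in 16p11.2+/- mice. In bulk tissue, fewer cells of a type and less RNA per cell cannot be told apart. The genotype labels were checked on 21 tested genes of the deleted segment, whose highest score among 16p11.2+/- mice was 3.54 and whose lowest among WT mice was 4.21.

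For none of the 10 genes did a difference between genotypes pass the test. The number past an adjusted p of 0.05 was 0 with edgeR's quasi-likelihood test on counts, against 0.109% of all tested genes, and 0 in each of the 20 other fits made, DESeq2 and limma among them. At an unadjusted edgeR p of 0.05 the number was also 0, where 4.32% of all tested genes passed. For each of the 10 genes the FPKM of the 2 genotypes overlapped, whereas the groups did not overlap for 2.83% of all tested genes. The log2 fold change, 16p11.2+/- against WT, was negative for 8 of the 10 genes, with a median of -0.14. The median of all tested genes was -0.01, and 51.8% of them were negative. The 2 libraries with few medium spiny neuron markers weighed on this direction. Without DF-1037 and DF-1062, which leaves 2 mice in that group, 3 of the 10 values were negative and the median was 0.12. In that fit 0 of the 10 genes passed an unadjusted edgeR p of 0.05, where 770 of all 19092 tested genes did. The values of Fkbp5, Sgk1, Zbtb16, Sult1a1, Plin4 and Cdkn1a were then positive, as given with each gene below. Levels also differed from mouse to mouse within a genotype, as given after the genes.

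**Figure D1:**
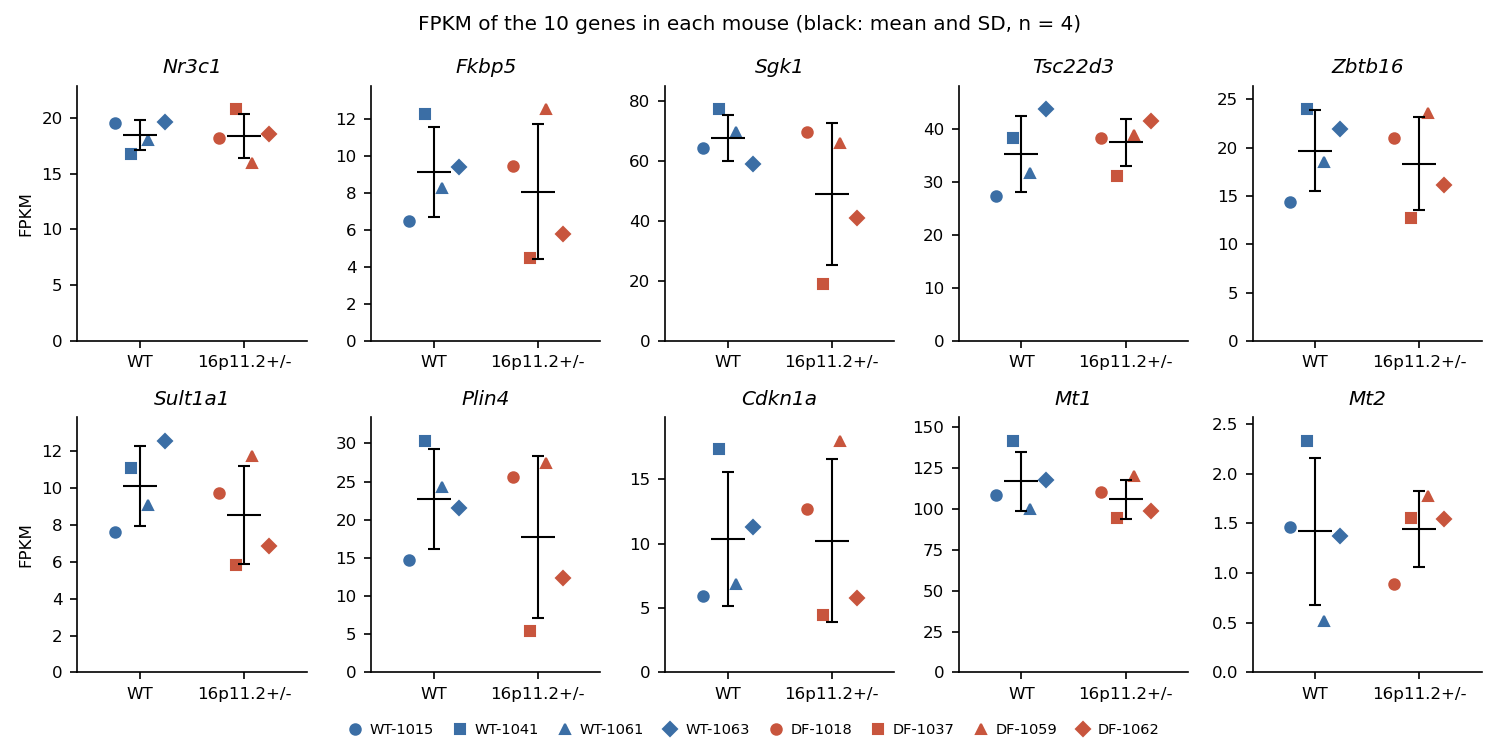
FPKM (vertical axis, from 0) of each of the 10 genes in the 4 WT and 4 16p11.2+/- mice, with 1 marker per mouse and the mean and SD in black. The groups overlap in each panel, and DF-1037 (red square) is the lowest of the 8 mice for 7 genes.

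Nr3c1 encodes the receptor itself. It lies on chromosome 18 from 39410545 to 39519421 on the minus strand (ENSMUSG00000024431, GENCODE M21, GRCm38, as for all positions of genes). Its FPKM was 19.5, 16.8, 18.1 and 19.6 in WT-1015, WT-1041, WT-1061 and WT-1063. In DF-1018, DF-1037, DF-1059 and DF-1062, the order kept for each gene below, it was 18.2, 20.8, 16.0 and 18.6. The receptor was the steadiest of the 10 genes, with its highest mouse 1.30 times its lowest, and both of these were 16p11.2+/- mice, so the WT values lay within their range. WT striatum had a mean of 18.5 ± 1.34 (SD, n = 4) and 16p11.2+/- striatum one of 18.4 ± 1.98 (SD, n = 4). The log2 fold change was -0.03 (standard error 0.10, edgeR adjusted p = 0.951), with a 95% interval of -0.22 to 0.16. Among 14 genes for receptors, chaperones and cofactors, 0 passed an unadjusted edgeR p of 0.05 and the median log2 fold change was 0.03. The smallest p of these belonged to Nr3c2, the mineralocorticoid receptor, which binds the same hormone (log2 fold change -0.20, standard error 0.12, edgeR adjusted p = 0.859). Hsp90ab1, the most abundant of the list and a chaperone of the receptor, had a mean FPKM of 453 in WT and 455 in 16p11.2+/- mice.

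Fkbp5 encodes a co-chaperone that lowers the affinity of the receptor for its hormone and closes a feedback loop. It lies on chromosome 17 from 28399094 to 28517527, minus strand (ENSMUSG00000024222). Its FPKM was 6.50, 12.3, 8.28 and 9.38 in the WT mice. In the 16p11.2+/- mice it was 9.42, 4.47, 12.5 and 5.78. The highest mouse of each genotype stood above 12, and the lowest and highest of all 8 were both 16p11.2+/- mice, 2.80 times apart. Means were 9.11 ± 2.42 for WT and 8.05 ± 3.64 for 16p11.2+/- mice (SD, n = 4 each). For Fkbp5 the log2 fold change came to -0.19 (standard error 0.33, edgeR adjusted p = 0.912), with a 95% interval of -0.83 to 0.45. It was 0.01 without DF-1037, and 0.28 (standard error 0.23) without DF-1037 and DF-1062.

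Sgk1 encodes a kinase that acts on ion channels and transporters and is induced early by the hormone. It lies on chromosome 10 from 21882184 to 21999903, plus strand (ENSMUSG00000019970), with 6 annotated starts that have a promoter sequence. The response element of the receptor is a palindrome, AGAACA and TGTTCT set 3 bases apart. In the 300-base windows around RefSeq starts (250 bases before to 50 after), this strict form was present in 3 of 32851 windows of all genes, or 0.00913%, and 1 of the 3 belonged to Sgk1. It spans chr10:21993701-21993715 (GRCm38.p6) and starts 189 bases before that start. The stretch around it is shown because Sgk1 alone of the 8 genes with a promoter sequence held the full element, and capitals mark the element:
Sgk1: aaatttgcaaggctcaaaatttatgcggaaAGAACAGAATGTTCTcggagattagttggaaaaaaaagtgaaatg
A single AGAACA or TGTTCT, which is contained in the full element, was in 19.0% of all windows and in windows of Sgk1, Sult1a1 and Tsc22d3. A match describes the letters of the window only, and elements far from a start were not searched.

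The FPKM of Sgk1 was 64.5, 77.3, 69.8 and 59.0 in the WT mice. In the 16p11.2+/- mice it was 69.8, 19.0, 65.9 and 41.0. DF-1018 and DF-1059 thus lay within the WT range, and DF-1037 and DF-1062 below it. Means were 67.6 ± 7.78 for WT and 48.9 ± 23.7 for 16p11.2+/- mice (SD, n = 4 each), the largest relative difference of the 10 genes with all mice. In log2 terms it was -0.48 (standard error 0.35, or -0.21 without DF-1037 alone and -0.72 without DF-1018), the unadjusted p was 0.207 with edgeR and the edgeR adjusted p was 0.859. The exact permutation test on FPKM gave p = 0.257 (two-sided, n = 4 against 4), where the smallest p this design allows is 0.0286. The same 2 mice had the lowest medium spiny neuron scores. Without them the log2 fold change of Sgk1 was 0.01 (standard error 0.12), and with the medium spiny neuron score as a covariate it was -0.19.

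**Figure D2:**
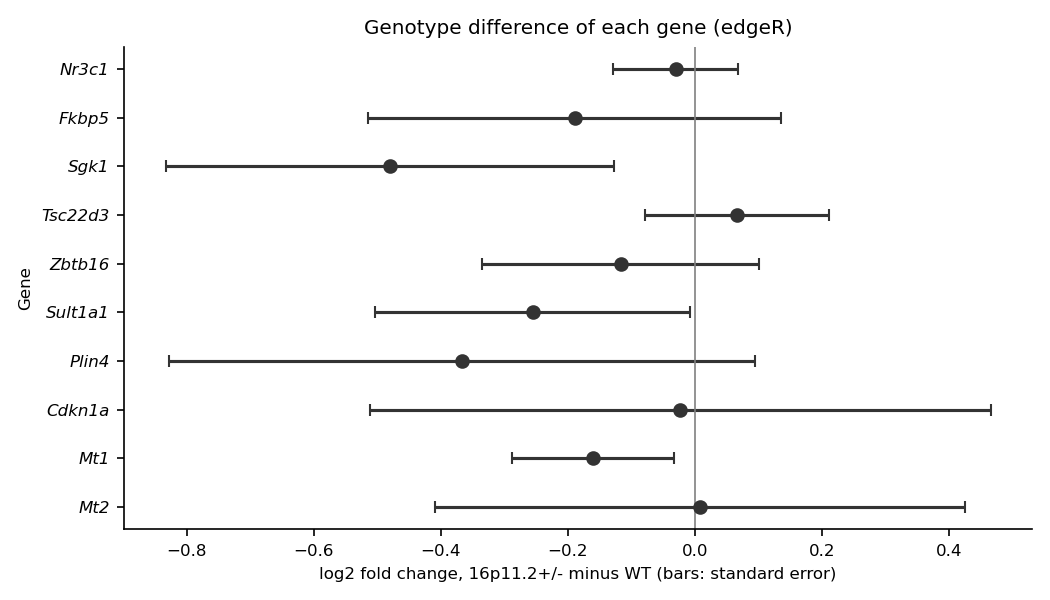
Log2 fold change of each gene, 16p11.2+/- minus WT, from edgeR on counts of 4 against 4 mice (points), with its standard error (bars). Sgk1 is the farthest from 0 at -0.48, and for Fkbp5, Tsc22d3, Zbtb16, Plin4, Cdkn1a, Nr3c1 and Mt2 the bar reaches past 0.

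Tsc22d3 and Zbtb16 are transcriptional regulators induced by the receptor. Tsc22d3 encodes GILZ, a leucine zipper protein that restrains inflammatory transcription factors, and lies on chromosome X from 140539528 to 140600659, minus strand (ENSMUSG00000031431). Its FPKM was 27.5, 38.4, 31.6 and 43.8 in WT and 38.4, 31.2, 38.8 and 41.6 in 16p11.2+/- mice. The 16p11.2+/- values all lay within the WT range. Its log2 fold change was 0.07 (standard error 0.15, edgeR adjusted p = 0.929).

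Zbtb16 encodes the zinc finger repressor PLZF and lies on chromosome 9 from 48654297 to 48836222, minus strand (ENSMUSG00000066687). Its FPKM was 14.4, 24.0, 18.5 and 21.9 in WT and 20.96, 12.7, 23.6 and 16.1 in 16p11.2+/- mice. WT-1041 was the highest and DF-1037 the lowest of the 8 mice, and the groups covered nearly the same range. For Zbtb16 the log2 fold change came to -0.12 (standard error 0.22, edgeR adjusted p = 0.919), and it was 0.19 (standard error 0.18) without DF-1037 and DF-1062.

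Sult1a1 and Plin4 belong to metabolism. Plin4 encodes a protein of the lipid droplet coat and lies on chromosome 17 from 56100591 to 56109803, minus strand (ENSMUSG00000002831). Its FPKM was 14.7, 30.3, 24.3 and 21.6 in WT and 25.6, 5.43, 27.5 and 12.4 in 16p11.2+/- mice. It had the widest range of the 10 genes, with WT-1041 at 5.59 times the level of DF-1037. Means were 22.7 ± 6.50 for WT and 17.7 ± 10.6 for 16p11.2+/- mice (SD, n = 4 each). Its log2 fold change was -0.37 (standard error 0.46, edgeR adjusted p = 0.882), and it was -0.06 without DF-1037 and 0.23 without both DF-1037 and DF-1062.

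Sult1a1 encodes a cytosolic sulfotransferase of phenols. It lies on chromosome 7 from 126672865 to 126676432, minus strand (ENSMUSG00000030711), only 19.0 kb from Bola2, the nearest gene past the adjusted threshold, which is in the deleted segment. Its FPKM was 7.63, 11.1, 9.07 and 12.6 in WT and 9.71, 5.84, 11.7 and 6.87 in 16p11.2+/- mice. The groups overlapped, with 2 of the 16p11.2+/- mice within the WT range and DF-1037 and DF-1062 below it. The log2 fold change was -0.26 (standard error 0.25, edgeR adjusted p = 0.864), and without DF-1037 and DF-1062 it was 0.09. Within 700 kb on its other side, the median log2 fold change of 14 tested genes was 0.02 and 0 were past the threshold. By contrast, 17 genes within 700 kb were past the threshold, all lower in 16p11.2+/- mice, with log2 fold changes of -1.23 to -0.93. On the side of Bola2, the tested genes nearer to Sult1a1 were Gm6939 and Slx1b, which did not pass the adjusted threshold. Their log2 fold changes were 0.14 (standard error 0.23) for Gm6939 and -0.94 (standard error 0.22) for Slx1b. Of the 21 tested genes listed for the deleted segment 13 passed, with a median log2 fold change of -0.97 over the 21. For Sult1a1 the 95% interval was -0.74 to 0.23. Of its exon length 4.05% overlaps Sgf29 on the opposite strand.

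Cdkn1a encodes p21, an inhibitor of cyclin-dependent kinases that is a target of both p53 and the glucocorticoid receptor. It lies on chromosome 17 from 29090976 to 29100727, plus strand (ENSMUSG00000023067), and 7.68% of its exon length overlaps annotated AC167363.2 on the opposite strand. Its FPKM was 5.95, 17.4, 6.90 and 11.3 in WT and 12.7, 4.46, 18.0 and 5.79 in 16p11.2+/- mice. Each genotype held both high and low mice, with WT-1041 and DF-1059 the highest, and the means were nearly equal at 10.4 ± 5.20 and 10.2 ± 6.32 (SD, n = 4 each). For Cdkn1a the log2 fold change came to -0.02 (standard error 0.49, edgeR adjusted p = 0.992), and it was 0.58 (standard error 0.40) without DF-1037 and DF-1062. Among 11 other p53 targets 10 were tested, 0 passed an unadjusted edgeR p of 0.05 and the median log2 fold change was 0.03. The smallest p belonged to Mdm2, the ligase that degrades p53 (log2 fold change -0.17, standard error 0.09, edgeR adjusted p = 0.859), and the highest level to the kinase Plk2 (mean FPKM 62.3 in WT and 42.2 in 16p11.2+/- mice).

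Mt1 and Mt2 encode metallothioneins, small cysteine-rich proteins that bind zinc and copper and are induced by metals, oxidants and glucocorticoids. The genes are neighbours on chromosome 8, plus strand, with Mt1 from 94179082 to 94180327 (ENSMUSG00000031765) and Mt2 from 94172664 to 94173568 (ENSMUSG00000031762). Metal responsive genes carry elements with the core TGCGCNC or TGCACNC. This core, searched on both strands, was in 25.7% of all promoter windows and in windows of Mt1, Mt2 and Sgk1. The stretch from 110 to 11 bases before the RefSeq start of Mt1, at chr8:94178979-94179078 (GRCm38.p6), is shown with the core in capitals:
Mt1: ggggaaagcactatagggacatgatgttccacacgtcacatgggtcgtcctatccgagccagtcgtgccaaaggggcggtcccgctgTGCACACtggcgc
Outside this stretch, the Mt1 window also held cores at 2 and 20 bases after the start. The Mt2 window held cores at -223, -128, -50 and 4 relative to its own start. Such a match is common, as the share of all windows shows.

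Mt1 was the most abundant of the 10 genes per length in every mouse. Its FPKM was 108, 142, 100 and 117 in WT and 110, 94.2, 120 and 98.6 in 16p11.2+/- mice. The highest mouse was WT-1041 and the lowest DF-1037, 1.50 times apart, and the groups overlapped. For Mt1 the log2 fold change came to -0.16 (standard error 0.13, edgeR adjusted p = 0.859). It was -0.06 without WT-1041 and -0.01 (standard error 0.13) without DF-1037 and DF-1062.

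Mt2 had an FPKM of only 1.46, 2.33, 0.519 and 1.37 in WT and 0.893, 1.55, 1.78 and 1.54 in 16p11.2+/- mice, from between 5 and 21 counts per mouse. At this depth a difference could hardly be seen, and the 95% interval of the log2 fold change ran from -0.81 to 0.83 around 0.01 (edgeR adjusted p = 0.997). Annotated Gm45774 covers 73.5% of the exon length of Mt2 on the opposite strand, and the strand setting of the counting is not given in the sources used here. The Mt2 values are therefore uncertain, since reads of the 2 genes may not have been told apart. The transcripts of Mt1 and Mt2 shared 0 stretches of 50 bases. Of 11 other genes of metal handling 10 were tested and 0 passed an unadjusted edgeR p of 0.05. The most abundant was Mt3, the metallothionein of neurons and astrocytes (mean FPKM 78.4 in WT and 79.0 in 16p11.2+/- mice). Slc30a1, a zinc exporter induced by metals, had the smallest p, with a log2 fold change of -0.13 (standard error 0.06, edgeR adjusted p = 0.859).

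The spread within a genotype differed among the 10 genes. The within-genotype SD of log2 CPM had a median of 0.476 over the 10 genes and 0.250 over all tested genes. Because the SD differs with the level of expression, each gene was also ranked among the tested genes within 0.5 log2 CPM of its own level. Plin4 stood at the 99.2 percentile of 1832 such genes, Cdkn1a at 98.5, Sgk1 at 96.2, Fkbp5 at 96.0 and Zbtb16 at 90.7. These 5 genes were above the 90th percentile. Sult1a1 was at 82.4, Tsc22d3 at 74.4, Mt1 at 66.2, Mt2 at 63.5 and Nr3c1 at 48.5, so the receptor varied about as much as other genes of its level. The 10 medium spiny neuron markers stood between 92.3 and 99.7 in the same ranking. For Sgk1 the coefficient of variation of FPKM was 11.5% in WT and 48.4% in 16p11.2+/- mice. Its SD of log2 CPM was 0.633, but 0.149 without DF-1037 and DF-1062, where its percentile was 62.0. Cdkn1a was then at 97.9, Plin4 at 96.2, Fkbp5 at 94.9 and Zbtb16 at 90.8, although the SD of each was also lower. By contrast, the SD of Tsc22d3 rose from 0.231 to 0.244 (percentile 88.1) and that of Mt2 from 0.580 to 0.704 (82.9). Mt1 was at 77.6, Sult1a1 at 75.6 and Nr3c1 at 62.1, each with a lower SD. The medium spiny neuron markers stood between 82.7 and 96.7.

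The same mice were high or low for most of the 10 genes. DF-1037 was the lowest of its genotype for 8 genes and the lowest of all 8 mice for 7. DF-1059 was the highest of its genotype for 7 genes. In WT striatum, WT-1041 was the highest for 7 genes and WT-1015 the lowest for 6. WT-1041 and DF-1059 thus stood at the top of their own genotype, and WT-1015 and DF-1037 at the bottom.

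**Figure D3:**
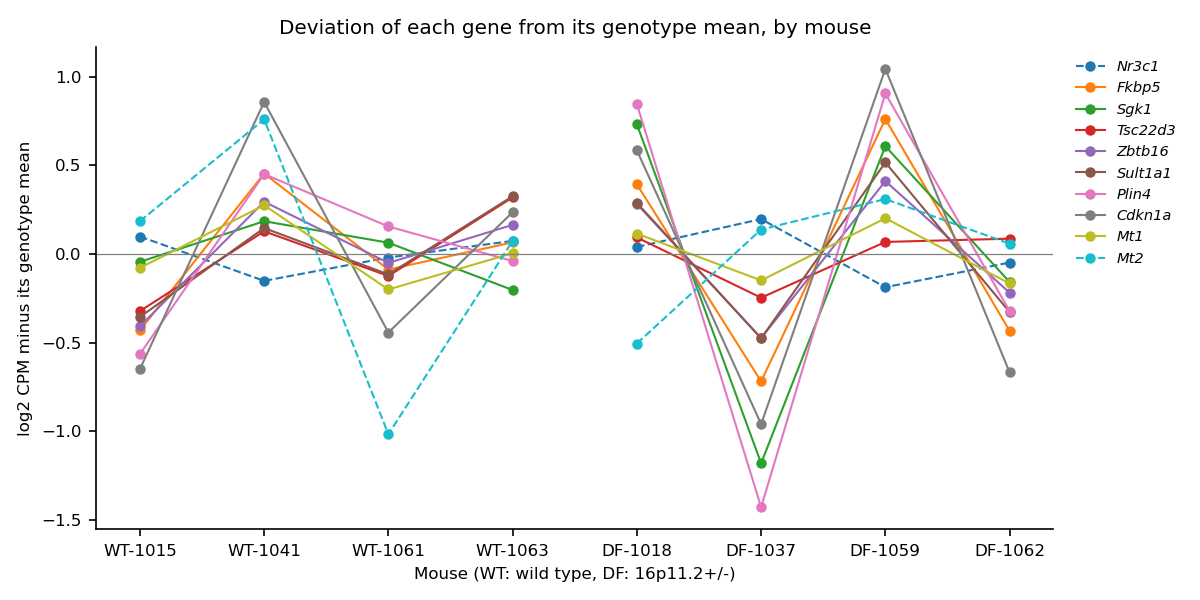
Log2 CPM of each gene minus the mean of its genotype (vertical axis) in each of the 8 mice. Lines join the points of a gene within a genotype only to guide the eye, and dashed lines mark Nr3c1 and Mt2, set apart after their values were seen. Most genes peak in WT-1041 and DF-1059 and are low in WT-1015 and DF-1037.

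To compare these patterns apart from genotype, the genotype mean of each gene was subtracted and Pearson's r was computed over the 8 mice for the 45 pairs of genes. A p came from all reorderings of mice within genotype, which cannot give less than 0.00174. Fkbp5 and Cdkn1a varied closely together, with r = 0.98 and rho = 1 (exact permutation p = 0.00174 for each), and r = 0.97 without the 2 mice farthest from the median of Fkbp5. Fkbp5 and Zbtb16 had r = 0.97 and rho = 0.98 (exact permutation p = 0.00347 for each), and r was 0.96 without the 2 farthest mice. Adjusted over the 45 pairs, the smallest p was 0.0521, shared by these and 4 other pairs, so 0 pairs passed an adjusted p of 0.05. Those were Zbtb16 with Sult1a1 (r = 0.96), Zbtb16 with Cdkn1a (0.96), Zbtb16 with Plin4 (0.93) and Cdkn1a with Mt1 (0.93).

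The median r of all 45 pairs was 0.65. Among the 8 genes other than Nr3c1 and Mt2, which were set apart after their values were seen, the 28 pairs had r between 0.40 and 0.98, with a median of 0.82. Without the 2 mice farthest from the median the median was 0.74, and the lowest pair fell to -0.15 (Tsc22d3 with Plin4). Over all tested genes, the median r with Fkbp5 was -0.003, and 2.14% had r over 0.8. That share was 5.46% with Sgk1, 3.50% with Plin4 and between 0.804% (Mt2) and 1.76% (Nr3c1) with the other genes. The lowest pair of the 28 was Sgk1 with Tsc22d3 (0.40). Nr3c1 ran the opposite way, with r between -0.26 and -0.76 against the other 9 genes. With Fkbp5 it had r = -0.76 and rho = -0.69 (exact permutation p = 0.0677 and 0.125), and r was -0.38 without the 2 farthest mice. It was -0.84 without DF-1037 and DF-1062, for which no p was computed. The relation did not pass the test, and its size depended on which mice were left out.

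**Figure D4:**
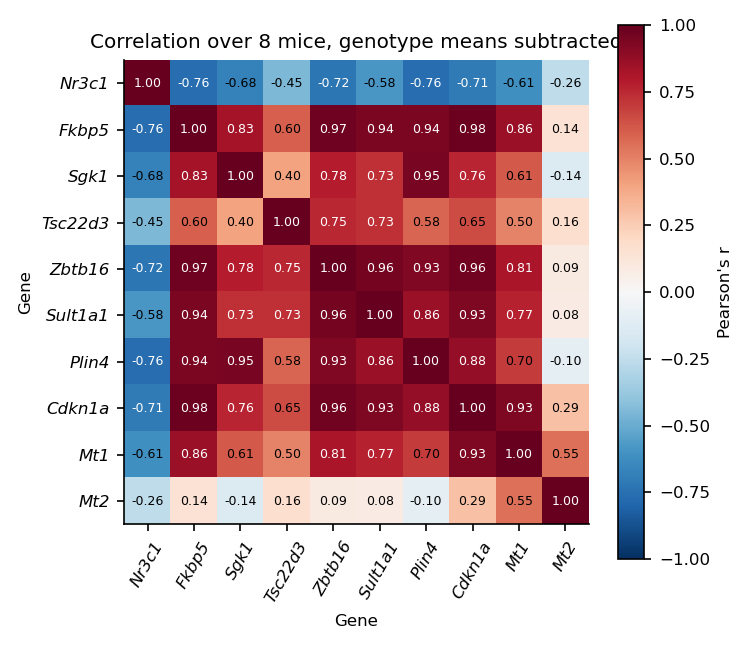
Pearson's r of each pair of genes over the 8 mice after subtraction of genotype means (red positive, blue negative). The block from Fkbp5 to Mt1 is positive throughout (0.40 to 0.98), the row of Nr3c1 is negative, and the values of Mt2 lie between -0.26 and 0.55.

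Without DF-1037 and DF-1062, the libraries low in medium spiny neuron markers, 6 mice remained. Over these the r of Fkbp5 was 0.96 with Cdkn1a, 0.94 with Zbtb16, 0.87 with Plin4 and 0.79 with Sult1a1. Plin4 and Cdkn1a had r = 0.76 over these 6 mice and 0.88 over all 8. Each r of Sgk1 with the other 7 genes of the 28 pairs was lower than over all 8 mice, from 0.55 with Plin4, 0.33 with Mt1 and 0.30 with Fkbp5 to -0.28 with Sult1a1. The median of the 28 pairs was 0.71. The values of Fkbp5 with Cdkn1a and Zbtb16 moved little without those 2 libraries, whereas those of Sgk1 fell, to -0.23 with Tsc22d3. Mt2, with few counts, had r = 0.87 with Mt1 and 0.68 with Cdkn1a over the 6 mice, against 0.55 and 0.29 over all 8.

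Each gene was also set against 12 marker scores, 120 relations in all, of which 0 passed an adjusted permutation p of 0.05 (the smallest was 0.208). At an unadjusted p of 0.05 the number was 4. Sgk1 had r = -0.40 and rho = -0.74 with the choroid plexus score (exact permutation p = 0.00347 and 0.00694), and r was -0.52 without the 2 farthest mice. With the meningeal fibroblast score it had r = -0.30 and rho = -0.52 (exact permutation p = 0.00347 and 0.0729), and r was -0.46 without the 2 farthest mice. These 2 relations gave the smallest adjusted p. Nr3c1 had r = 0.64 and rho = 0.76 with the choroid plexus score (exact permutation p = 0.0347 for each, adjusted 1 and 0.996), with r = 0.63 without the 2 farthest mice. The medium spiny neuron score had r = 0.78 with Sgk1, 0.73 with Plin4 and 0.70 with Fkbp5, but 0.01 with Tsc22d3. For Sgk1 the exact permutation p was 0.255 and rho was 0.86 (exact permutation p = 0.104), with r = 0.87 without the 2 farthest mice. The brain endothelial score had r = 0.88 with Nr3c1 and rho = 0.81 (exact permutation p = 0.0139 and 0.0365, adjusted 0.556 and 0.996), with r = 0.74 without the 2 farthest mice. Oligodendrocyte markers, of which 7 of 10 were lower in 16p11.2+/- mice at an unadjusted edgeR p of 0.05 (against 2.37% of all tested genes) and 0 after adjustment, had a median r of 0.01 with Fkbp5 over all mice and -0.39 over the 6. The part of tissue composition in the spread of the 10 genes was not tested beyond these values.

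Other genes that glucocorticoids induce in many tissues were set against Fkbp5 in the same way. Of a list of 28, 26 were tested, all but Cebpb and Lcn2, and 0 passed an unadjusted edgeR p of 0.05. Their log2 fold changes were negative for 24, with a median of -0.09. Without DF-1037 and DF-1062 they were negative for 10 of the 26, with a median of 0.09. The score of the list, its mean log2 CPM, was between 4.94 and 5.28 in WT mice, 5.18 in DF-1018 and 5.20 in DF-1059, but 4.51 in DF-1037 and 4.73 in DF-1062. Nedd9, an adaptor protein of cell adhesion, had the smallest p (log2 fold change -0.32, standard error 0.15, edgeR adjusted p = 0.859), and Glul, the glutamine synthetase of astrocytes, the highest level (mean FPKM 589 in WT and 565 in 16p11.2+/- mice). After subtraction of genotype means, the r with Fkbp5 was positive for 25 of the 26 genes, with a median of 0.77. It was over 0.8 for 13 of them, against 2.14% of all tested genes. Over the 6 mice without DF-1037 and DF-1062 it was positive for 21, with a median of 0.62, and was over 0.8 for 8, or 30.8%, against 5.07% of all tested genes. Over all 8 mice the highest were Errfi1, an inhibitor of EGF receptor signalling (r = 0.96), Pdk4, a kinase that shuts down pyruvate dehydrogenase (0.94), Arrdc2, an arrestin-like protein (0.92), and Nfkbia, the inhibitor of NF-kappaB (0.91). Over the same 8 mice Dusp1 alone was negative, with r = -0.39. Genes from Errfi1 to Dusp1 were picked for these values, and p-values were not computed for them.

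Medium spiny neuron markers, which were not listed as receptor targets, had a median r with Fkbp5 of 0.70, with 10 of 10 positive and 0 over 0.8, so over all 8 mice a positive r of this size was not particular to induced genes. Over the 6 mice their median r was -0.64, with 0 of 10 positive and no p computed. The 10 markers came from the same few mice and do not count as 10 separate observations. For receptors, chaperones and cofactors the median r with Fkbp5 was -0.22 over all mice and -0.17 over the 6, and for metal handling it was -0.06 and -0.02. The sign turned for 9 tested genes of corticosteroid handling and the CRH axis (-0.35 over all mice and 0.13 over the 6) and for p53 targets (0.22 and -0.10). For 13 clock genes, some of which respond to glucocorticoids, the median was 0.48 over all mice and -0.60 over the 6. For 12 immediate early genes, which follow neuronal activity, it was -0.28 over all mice and -0.50 over the 6. Crh, the releasing hormone at the head of the stress axis, had the smallest p of its list, with a mean FPKM of 1.25 ± 0.80 in WT and 3.39 ± 2.65 in 16p11.2+/- mice (SD, n = 4 each). Its FPKM was 0.60, 0.84, 2.40 and 1.17 in WT and 1.74, 1.09, 3.77 and 6.97 in 16p11.2+/- mice. DF-1062, low in medium spiny neuron markers, was thus the highest. The log2 fold change of Crh was 1.38 (standard error 0.61, edgeR adjusted p = 0.859), which did not pass. Abcb1a, an efflux pump that limits the entry of some corticosteroids into the brain, was the most abundant of that list. Its mean FPKM was 8.78 in WT and 8.44 in 16p11.2+/- mice.

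**Figure D5:**
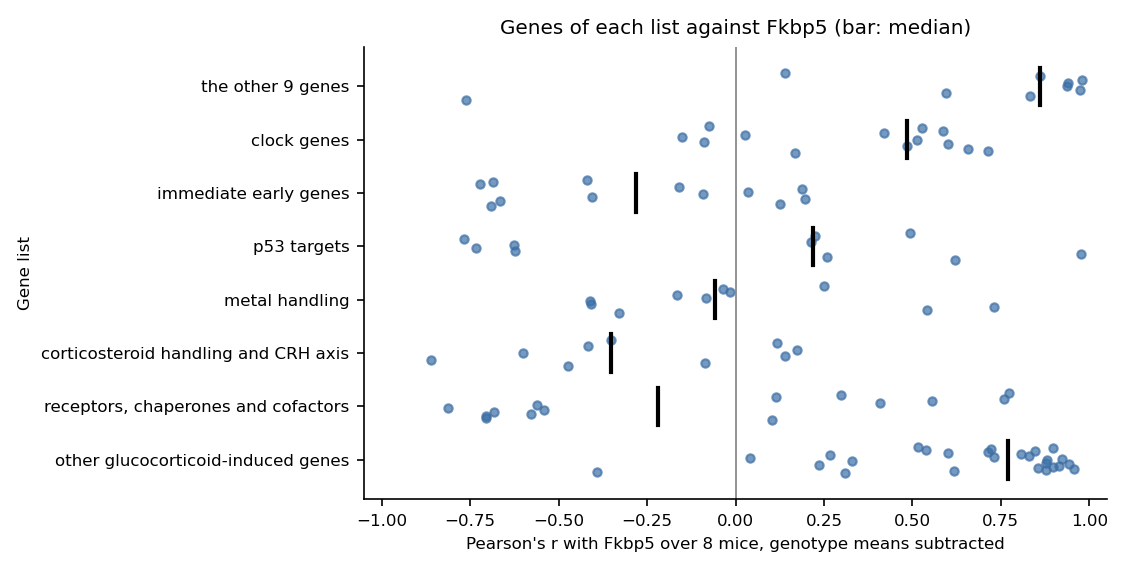
Pearson's r of each tested gene with Fkbp5 over the 8 mice after subtraction of genotype means (horizontal axis), by gene list, with 1 point per gene and a black bar at the median. The other glucocorticoid-induced genes lie mostly to the right (median 0.77), and the receptors, chaperones and cofactors spread to both sides (median -0.22).

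Immediate early genes and clock genes were also compared between genotypes. Of the 12, 6 were lower in 16p11.2+/- mice at an unadjusted edgeR p of 0.05, against 2.37% of all tested genes that were lower at this level, and 0 passed the adjusted threshold. They were Fosb, Junb, Egr2, Egr4, Nr4a1 and Npas4. Without DF-1037 and DF-1062, 5 of the 12 were lower at that unadjusted level (Arc, Egr2, Nr4a1, Npas4 and Btg2). In that fit 455 of all 19092 tested genes were lower at this level. The median log2 fold change of the 12 was then -0.52, against -0.56 with all mice. Npas4, an activity-dependent transcription factor of neurons, had a mean FPKM of 6.86 ± 1.278 in WT and 3.57 ± 1.32 in 16p11.2+/- mice (SD, n = 4 each, log2 fold change -0.96, standard error 0.25, edgeR adjusted p = 0.859). For Egr1, the most abundant, it was -0.65 (standard error 0.31, edgeR adjusted p = 0.859). All 13 clock genes had negative log2 fold changes, between -0.27 (Nr1d1) and -0.03, with 0 at an unadjusted p of 0.05 and Tef the most abundant. Without DF-1037 and DF-1062, 4 of the 13 were negative and the median was 0.05. Their score was between 6.25 and 6.48 in WT mice, 6.48 in DF-1018 and 6.34 in DF-1059, and lower only in DF-1037 (6.13) and DF-1062 (5.86).

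Paralogues of the 10 genes were examined for the same patterns. Of 20, 18 were tested, and Sgk2, Zbtb20 and Plin3 were lower at an unadjusted edgeR p of 0.05 (3 of 18, where 2.37% of all tested genes were lower), with 0 past the adjusted threshold. Without DF-1037 and DF-1062, Plin3 alone of the 18 was lower at that unadjusted level, where 455 of all 19092 genes tested in that fit were. Plin3, a lipid droplet protein, had a mean FPKM of 9.003 ± 1.30 in WT and 6.86 ± 0.57 in 16p11.2+/- mice (SD, n = 4 each, log2 fold change -0.41, standard error 0.11, edgeR adjusted p = 0.859). Fkbp1a, the immunophilin that binds FK506, was the most abundant (mean FPKM 114 in WT and 102 in 16p11.2+/- mice). The median r of the paralogues with Fkbp5 was 0.14 over all mice and 0.12 over the 6.

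The genes whose variation was most like that of each of the 10 were named from all tested genes with a mean log2 CPM of at least 2, by Pearson's r over the 8 mice after subtraction of genotype means. Mafk was closest to Zbtb16 (r = 0.99) and Tma16 to Cdkn1a (0.99). Ehd1, Cdkn1a and Elmsan1 were closest to Fkbp5 (each 0.98). For Plin4 the first named gene was Gm19439 (0.98), followed by Arrdc2 (0.98) and Elmsan1 (0.98). Slc2a1, the glucose transporter of the blood-brain barrier, was among the closest to both Zbtb16 (0.98) and Sult1a1 (0.97). Nr3c1 was closest to Mcl1 (0.99), Sgk1 to Ubr2 (0.99), Tsc22d3 to Ism1 (0.96), Mt1 to Klhl25 (0.97) and Mt2 to Zfp641 (0.97). These genes were picked as the highest of all those compared, so the values are a description and no p was computed.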

How the data were processed

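Total RNA of striatum was sequenced as 1 library per mouse. In the study's methods, reads were mapped with Hisat2 2.1.0 and counted with Htseq-count, whereas the submitters' processing notes name Bowtie 0.12.2, mm8 and mm9. The annotation and strand setting are not given in the sources used here. The authors deposited raw counts per gene and mouse. The deposited FPKM values are these counts per gene length and library total, as the lengths they imply show. GENCODE M21 exon lengths equal the implied length to within 1 base for 95.7% of 17180 genes with at least 100 counts in all (all of the 10 but Nr3c1). A table of the authors' own comparison (fold changes and p-values) and a summary of FPKM were not used. All per-sample columns of the main table were used.

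The quasi-likelihood test of edgeR 4.0.16 (R 4.3.3) was run on counts with TMM factors, after filterByExpr had removed genes with low counts (minimum count 10, minimum total 15), and p-values were adjusted over all tested genes by Benjamini-Hochberg with a threshold of 0.05. Intervals of 95% are the log2 fold change and its standard error on a normal scale. Log2 CPM used a prior count of 2. FPKM was compared with two-sided exact permutation tests over 70 assignments. Within a genotype no libraries agreed within sampling noise, since chi-square per degree of freedom was 8.88 to 62.9 for pairs of mice, and each library was 1 sample. P-values set a genotype difference or a relation between genes against the spread between mice. Promoter sequences are from RefSeq (GRCm38.p6), with a match for 8 of the 10 genes (not Nr3c1 and Zbtb16).

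The 10 genes and all lists were chosen with earlier results of these data known. Named are all 10 genes, from each pathway list (the deleted segment and the cell markers are given as counts and scores) the gene with the smallest p, the most abundant gene and any past the threshold, and for each of the 10 genes the most alike of 3 genes ranked. Any other gene was named with its values in view. The marker score relations, the medium spiny neuron covariate and all values without DF-1037 and DF-1062 were chosen after seeing the data. Other fits used DESeq2 1.42.0, voom or trend in limma 3.58.1 (log2 FPKM with a pseudocount of 1 or 0.1), RLE factors, library totals, other filters, marker scores as covariates, or 7 of the 8 mice. Scripts were tested on simulated data.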

Additional observations from a re-analysis of the deposited data

Results flagged for a closer look

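Among 44 sets of 4 mice (the FPKM of each of the 10 genes and the 12 marker scores, in each genotype), 1 held a mouse far from the others. It was the thalamic neuron score in WT mice, where WT-1063 had 7.10 and the others between 4.33 and 4.63, a gap of 0.89 of the whole range. Chance gives such a mouse in about 1 in 20 sets. The FPKM of the 10 genes had none.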

How the results depend on the processing

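No paired analysis was made, since the labels give no batch and no numbers shared between mice of the 2 genotypes. The number of the 10 genes past the threshold was 0 in each fit. The number of all genes past it was 20, between 16 and 29 in the other fits on all mice, and between 8 and 18 with a mouse left out (10 without WT-1015, 11 without WT-1041, 10 without WT-1061, 8 without DF-1018 or DF-1059, 12 without DF-1062). It was 11 without both DF-1037 and DF-1062, where the log2 fold change was 0.28 for Fkbp5, 0.012 for Sgk1, 0.19 for Zbtb16, 0.094 for Sult1a1, 0.23 for Plin4, 0.58 for Cdkn1a and -0.071 for Mt2. With the medium spiny neuron score as a covariate, the sign turned for Fkbp5 (0.041), Zbtb16 (0.032), Cdkn1a (0.20) and Mt2 (-0.13). It turned with the choroid plexus score for Nr3c1 (0.031) and Mt2 (-0.027), and with the thalamic score for Cdkn1a (0.082). Leaving out each mouse in turn moved the log2 fold change from -0.094 to 0.038 for Nr3c1, from -0.48 to 0.012 for Fkbp5, from -0.72 to -0.21 for Sgk1, from -0.44 to -0.11 for Sult1a1, from -0.65 to -0.064 for Plin4, from -0.025 to 0.18 for Tsc22d3, from -0.26 to 0.026 for Zbtb16, from -0.44 to 0.34 for Cdkn1a and from -0.26 to 0.34 for Mt2. The cause was not tested. Mt1 kept its sign in all 20 other fits, with values from -0.22 to -0.012 around -0.16. None of these values passed the threshold, so their signs are not firm. Mt2 was not tested where every mouse had to have 10 counts, since it has as few as 5 counts.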
